A study of Homo sapiens with 12 samples.

Results

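The regions described here are 1642 stretches of open chromatin of KO-52 cells where both p42 and both empty vector (EV) peak lists held a peak and neither p30 list did. They were found by merging the peaks of 6 ATAC-seq peak lists on chromosomes 1 to 22 and X wherever they overlapped by at least 1 bp, which gave 355051 common regions, so that the members make up 0.462% of all regions. Of the 123479 regions with a peak in both p42 and both EV lists, 1.33% lacked a peak in both p30 lists. The members were selected on these peak calls, so their presence in 4 lists and absence from 2 is the rule that made them and not a result.

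KO-52 is an acute myeloid leukaemia (AML) cell line whose own CEBPA gene carries mutations on both alleles, and all 6 groups share that background. The cells expressed p42 or p30 from a construct or had EV, and each was kept in DMSO or given tunicamycin (Tm) at 2 µg/mL for 8 h, a drug that blocks N-glycosylation in the endoplasmic reticulum. ATAC-seq was made from 50000 nuclei in 2 replicates per condition, and each deposited list holds the peaks of 1 condition with its replicates pooled. The study's methods describe KO-52 lines for lasting expression as transduced with plasmids of p42 or p30 fused to ERT2, which enters the nucleus when 4-hydroxytamoxifen is given, and sorted for GFP, and they also describe transient expression in KO-52. The study calls the p42 and p30 cells of its ATAC-seq transduced, the word its methods use for the lasting lines. The transient cells were electroporated instead. The ATAC-seq methods name no plasmid, and whether a line is 1 clone is not given in the sources used here. Since 1 list stands for each condition, no replicate check exists for any value below, and the intervals given are 95% Wilson intervals that cover the counting of regions only.

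CEBPA is a bZIP transcription factor that binds DNA as a dimer and drives granulocyte and monocyte development. The short isoform, p30, starts further inside the same coding sequence than the long isoform, p42, so it lacks transactivation domains at the start of p42 but keeps another transactivation domain and the DNA-binding domain, and both can bind the same sites. ATAC-seq reads where the Tn5 transposase can cut, which marks promoters, enhancers and other sites where proteins keep nucleosomes away.

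Bases of some of the strongest members are printed as examples and do not stand for all members. They run from 50 bp before to 50 bp after the summit, read on the + strand of hg38. Strength is the lowest of the 4 within-list percentiles by −log10 q, a measure the rule used. Capitals mark exact matches to AP-1 (TGANTCA), CEBP (TTGCNNAA), STAT (TTCNNNGAA) or to CEBP:AP1, ATF4, RUNX, PU.1, GATA, OCT or NFY, whose letters are given with their shares. The first 4 are ranks 1, 3, 4 and 5 by strength, the member of rank 2, nearest to CLXN, is not printed and holds PU.1, RUNX and NFY matches within 100 bp of its summit, and 3 more were picked after their sequences were seen because they hold a match to AP-1 or CEBP.
PREX1, 312572 bp from its start site, chr20:48330046-48330146: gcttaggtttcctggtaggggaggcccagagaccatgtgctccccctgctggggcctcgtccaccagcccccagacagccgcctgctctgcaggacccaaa
METTL14, 89210 bp from its start site, chr4:118596050-118596150: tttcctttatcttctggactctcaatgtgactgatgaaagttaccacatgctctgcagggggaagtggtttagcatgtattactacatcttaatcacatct
USP24, intron, chr1:55205046-55205146: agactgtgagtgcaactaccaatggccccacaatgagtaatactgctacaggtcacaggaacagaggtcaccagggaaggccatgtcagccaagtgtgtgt
TPST1, 19219 bp from its start site, chr7:66185822-66185922: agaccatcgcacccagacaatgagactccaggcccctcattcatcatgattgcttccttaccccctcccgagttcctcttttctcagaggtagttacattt
BMP5, 87823 bp from its start site, chr6:55963443-55963543: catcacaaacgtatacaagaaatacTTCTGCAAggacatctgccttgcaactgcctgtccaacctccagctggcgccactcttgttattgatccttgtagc
CEP170, 52218 bp from its start site, chr1:243074367-243074467: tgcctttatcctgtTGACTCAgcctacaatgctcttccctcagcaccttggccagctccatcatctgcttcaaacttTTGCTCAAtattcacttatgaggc
MXI1, 18877 bp from its start site, chr10:110188628-110188728: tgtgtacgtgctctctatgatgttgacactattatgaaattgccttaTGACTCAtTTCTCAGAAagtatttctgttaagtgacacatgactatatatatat
The first 4 hold no match in capitals. The BMP5 region holds a CEBP match, the CEP170 region an AP-1 match and a CEBP match, and the MXI1 region an AP-1 match and a STAT match side by side.

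The members were weak peaks in the 4 lists that held them. The height of a peak is given as the number of tags at its summit, which can be solved from the fold enrichment and the p-value that the peak caller wrote. The median member had 9 tags in p42 DMSO (quartiles 7 and 12), 8 in p42 Tm (6 and 10), 7 in EV DMSO (6 and 8) and 7 in EV Tm (6 and 9). Regions with a peak in all 6 lists had medians of 19, 17, 16 and 17 tags in the same lists. The highest member had 33 tags in p42 DMSO and 24 in EV Tm, against a highest summit of 105 to 111 tags over the regions in all 6 lists.

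Estimated depth, from the background that the caller assumed, in units of 1000000 tags, was 30.0 for p42 DMSO and 25.4 for p42 Tm, 22.2 for EV DMSO and 25.1 for EV Tm, and 26.5 for p30 DMSO and 23.1 for p30 Tm. In DMSO the p30 list lay between the other 2, and in Tm it was the shallowest of the 3. The p30 DMSO list held 207005 peaks, between 253445 with p42 and 187113 with EV, and the p30 Tm list held 187364, fewer than the 220835 with p42 and the 200633 with EV. The part of depth in the missing p30 peaks was not tested. Scaled to 1000000 estimated tags (counts per depth, written CPM here), the median member had 0.300 CPM in p42 DMSO, 0.314 in p42 Tm, 0.315 in EV DMSO and 0.279 in EV Tm. A height in the p30 lists was not available at these places, because a list gives no value where no peak was called. A limit can be set instead: at the background of each member, the median summit that would still have missed the lowest p-value of the p30 lists was 3 tags, which is 0.113 CPM in p30 DMSO and 0.130 in p30 Tm. The limit is higher where the local background is higher, and it is given beside the members below where it was 8 tags or more. It is nominal, because a peak must also reach a minimum width.

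Against that limit the median member was 2.21 times as high in p42 DMSO and 2.39 times in EV DMSO, and 2.12 times in p42 Tm and 1.84 times in EV Tm. The lowest −log10 p was 3.095 to 3.195 in the 4 holding lists, near the 3.153 and 3.199 of the p30 lists. A ratio above 1 is thus nearly fixed by the rule and is not a result, and it gives no p30 height. The lowest of the 4 ratios of a member had a median of 1.56 and a maximum of 3.63, and it was above 2 in 209 members (12.7%). At the others at least 1 of the 4 lists was within 2 times that limit, so a region without a p30 peak is not shown to be closed.

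The share of regions that lacked both p30 peaks was lower the stronger the region was in the other lists, as the plot of this share by percentile shows. It was 8.18% (7.68 to 8.71) among regions whose lowest percentile was under 10, 4.37% from 10 to 20, 1.23% from 30 to 40 and 0.0394% from 50 to 60. None of the 15077 regions from percentile 60 to 70 lacked both p30 peaks, for which the interval allows up to 0.0255%, and none of the 43050 above. The regions of the opposite kind, with a peak in both p30 and both EV lists and none in p42, numbered 2844 of 124130 (2.29%), and those missing from both EV lists alone 2221 of 124739 (1.78%). Both of these sets also thinned out with strength, but they were more frequent than the members at each band up to 50 to 60, with 1.31% and 0.478% in the band from 40 to 50 against 0.209% for the members. In the bands from 30 to 40 and from 50 to 60 the intervals of the members and of the regions without an EV peak overlapped. The order depends on the rule: with the lists of 1 treatment alone, the members outnumbered the regions without a p42 peak.

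At the edge of the rule stood 255 members (15.5%) whose lowest −log10 q in the 4 lists was under 2, close to the lowest value of the lists. The median of this lowest −log10 q was 2.77 and its maximum 8.64, and 46 members (2.80%) reached 5 or more in all 4 lists. Just outside the rule were 7421 regions with a peak in all 4 lists and in 1 of the p30 lists, where the p30 peak had a median of 8 tags and a −log10 q with a median of 4.50. Of these, 198 (2.67%) had a p30 −log10 q under 2.

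Missing a p30 peak in DMSO and missing one in Tm went together. Of the 123479 regions in the 4 other lists, 4027 (3.26%) had no p30 DMSO peak and 6678 (5.41%) no p30 Tm peak, and the 1642 members had neither. A p30 Tm peak was missing at 40.8% of the regions with no p30 DMSO peak and at 4.22% of those with one. Weak regions are more often missed in any list, and how much of this overlap is due to strength was not tested. The same 2 shares were 52.9% and 3.65% for p42 and 33.3% and 3.09% for EV.

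Within the 4 lists that held them, the members were about as high with p42 as with EV. The median log2 ratio of p42 to EV in CPM was −0.07 in DMSO (quartiles −0.43 and 0.27) and 0.12 in Tm (−0.24 and 0.47), against −0.17 and −0.02 over the regions in all 6 lists. In both treatments p42 was higher at 396 members (24.1%) and lower or equal at 517 (31.5%), and the 2 treatments differed in direction at 729 (44.4%). Over the regions in all 6 lists the same shares were 23.4%, 40.9% and 35.6%. The share with p42 higher in both treatments was thus close to that of these regions. Fewer members were lower or equal in both, and more differed in direction. The median log2 ratio of Tm to DMSO was 0.04 in p42 and −0.18 in EV, and over the regions in all 6 lists 0.10 and −0.08. The quartiles of all of these ratios fell on both sides of 0, and 1 tag more or less at a member of 7 tags moves its ratio by more than these medians.

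Members with a CEBP match had higher ratios of p42 to EV than the others. Their median log2 ratio of p42 to EV was 0.06 in DMSO and 0.25 in Tm (n = 240), against −0.08 and −0.02 for the 1402 members without a match, and equal tag counts, which many members have, give −0.02 in Tm. The ratio was above 0 in DMSO at 54.6% of members with a CEBP match and 39.4% of those without, and in Tm at 59.6% and 49.5%. Regions in all 6 lists gave −0.07 and 0.09 with a CEBP match and −0.18 and −0.02 without, a shift of the same sign. Members with an AP-1 match (n = 213) had ratios of −0.07 and 0.17, and the 1429 members without one −0.07 and 0.09. The regions in all 6 lists lay at −0.36 and −0.16 with an AP-1 match and at −0.15 and 0.02 without. No replicate stands behind these ratios, and they were not tested.

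The rule used no sequence, but it used the peak calls, so a motif share can differ between the sets through the rule itself. The members had to have p42 peaks, and the regions without a p42 peak had to have none. The CEBP share of members was 12.05% at up to 7 p42 DMSO tags and 19.7% at 12 or more. By EV DMSO tags it was 18.4% at up to 5 and 11.9% at 9 or more. The part of the rule in the differences between motif shares was not tested. The window was 100 bp on each side of the summit of the region's strongest peak, searched on both strands for 27 consensus motifs. AP-1, the dimer of FOS and JUN proteins that responds to stress and growth signals, binds TGANTCA, and 213 members held it, a share of 13.0% (11.4 to 14.7). This was close to the 12.9% of all regions and the 13.5% of regions in all 6 lists. In the regions without a p42 peak the share was 29.5% (27.9 to 31.2), and in those without an EV peak 10.4% (9.16 to 11.7).

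The CEBP consensus TTGCNNAA ran the other way. It was held by 240 members, 14.6% (13.0 to 16.4), against 6.61% (5.76 to 7.58) of the regions without a p42 peak, 14.9% (13.5 to 16.5) of those without an EV peak, 10.96% of those in all 6 lists and 13.1% of all regions. The combined element TGTTGCAA, written CEBP:AP1 here, was rare at 1.16% of members, 0.176% of regions without a p42 peak and 1.16% of all regions. The ATF4 element TGATGCAA, which C/EBP and ATF4 dimers bind, was found in 17 members (1.04%), below the 1.25% of all regions with overlapping intervals. These last letters overlap: TGTTGCAA and TGATGCAA end alike, and either can overlap a CEBP match.

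Other blood cell factors split along the same line. PU.1, the ETS factor that specifies myeloid and B cells (GAGGAAGT), was matched in 8.65% of members (7.38 to 10.1), 3.90% of regions without a p42 peak, 10.5% of those without an EV peak and 6.86% of all regions. RUNX (TGTGGTT), the family of RUNX1, was matched in 8.16% (6.93 to 9.59) of members against 17.7% (16.3 to 19.1) of regions without a p42 peak and 9.28% of all regions. The ZEB E-box CAGGTG followed with 8.16% against 15.8% and 11.5%. The GATA motif, written AGATAAG, of the factors of red cell and megakaryocyte genes, was held by 3.78% (2.96 to 4.81) of members, 5.77% (4.97 to 6.68) of regions without a p42 peak and 1.53% (1.10 to 2.13) of those without an EV peak. Its share was 3.22% of all regions and 3.14% of those in all 6 lists, both inside the members' interval.

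Of the 27 motifs, the members' interval lay above that of the regions without a p42 peak for 6 and below it for 5, and overlapped it for 16. The 6 were CEBP, CEBP:AP1, PU.1, SP/KLF, NFY and CTCF, and the 5 were AP-1, RUNX, GATA, ZEB and ISRE. Against the regions without an EV peak, 24 of 27 intervals overlapped, and GATA, SP/KLF (GGGGCGG) and NFY (ATTGGCT) were higher in the members. Against all regions, 22 overlapped, PU.1 and NFY were higher, and ETS (CCGGAAGT), ZEB and CTCF were lower. In this comparison the regions without a p42 peak stood apart, and the members and the regions without an EV peak were alike in most motifs and close to all regions. The intervals were not adjusted for the number of motifs and are no test.

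**Figure D1:**
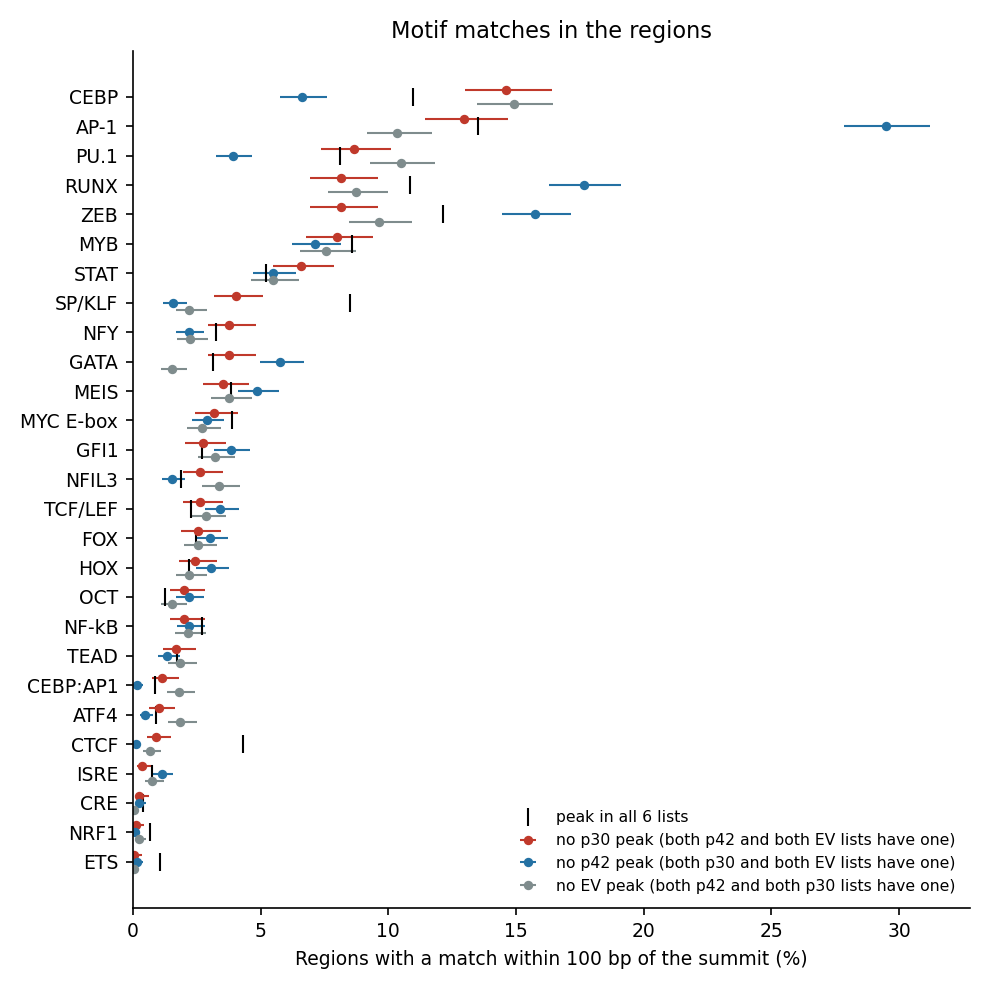
Share of regions with at least 1 match within 100 bp of the summit (percent, x axis) for 27 consensus motifs (y axis), in the regions without a p30 peak, without a p42 peak and without an EV peak, with the regions in all 6 lists as black ticks. Points are shares and bars 95% Wilson intervals; the AP-1 share is 29.5% without a p42 peak, 13.0% without a p30 peak and 10.4% without an EV peak, and the CEBP share is 6.61%, 14.6% and 14.9%.

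The contrast in AP-1 and CEBP held at each height. EV DMSO is a list that both sets share, and among regions with at most 5 EV DMSO tags AP-1 was matched in 14.0% of members and 30.3% of regions without a p42 peak. At 6 to 8 tags the shares were 13.6% and 28.7%, and at 9 or more 10.7% and 30.2%. For CEBP they were 18.4% and 6.22%, 14.3% and 7.28%, and 11.9% and 5.98% in the same order. AP-1 also differed within 1000 bp of a transcription start site, at 9.13% of 219 members and 21.8% of 325 regions, and further away, at 13.6% and 30.5%. For CEBP the shares within 1000 bp of a start site, 8.68% and 6.46%, had overlapping intervals, and further away they were 15.5% and 6.63%. Where GC content was under 45%, CEBP was matched in 20.4% of members and 8.24% of the others, and where it was higher, in 8.94% and 4.51%.

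Set beside the regions in all 6 lists, the picture depended on the list that gave the height. By p42 DMSO tags, AP-1 was matched in 14.3% (11.6 to 17.6) of members and 22.5% (21.5 to 23.6) of those regions at up to 7 tags, and in 10.4% (7.89 to 13.6) and 12.1% (11.9 to 12.3) at 12 or more. By EV DMSO tags no such gap was seen among the weakest, with 14.0% (10.8 to 18.0) and 12.7% (11.4 to 14.2) at up to 5 tags and 10.7% (8.02 to 14.1) and 13.5% (13.3 to 13.7) at 9 or more, where the intervals overlapped.

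CEBP showed the same dependence. By p42 DMSO tags it was matched in 12.05% (9.53 to 15.1) of members and 9.37% of regions in all 6 lists at up to 7 tags, and in 19.7% (16.2 to 23.6) and 11.2% at 12 or more. By EV DMSO tags the order over heights was the opposite, with 18.4% (14.8 to 22.7) and 14.6% (13.2 to 16.2) at up to 5 tags and 11.9% (9.10 to 15.4) and 10.4% (10.2 to 10.6) at 9 or more, with overlapping intervals. The regions without an EV peak had CEBP in 11.8% at up to 7 p42 DMSO tags and in 18.8% at 12 or more.

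The OCT element ATGCAAAT had the highest ratio of the members' share to that of all regions, 1.32, among motifs found in at least 1% of regions. It was held by 33 members, 2.01% (1.44 to 2.81) against 1.52%, with overlapping intervals, and by none of the 20 strongest. CTCF, the insulator protein, was matched in 15 members (0.914%), against 4.31% of regions in all 6 lists and 1.61% of all regions. The ETS promoter element was matched in 1 member (0.0609%), against 1.06% and 0.443%.

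The members lay mostly away from promoters. A base within 1000 bp of a transcription start site was found in 219 members, 13.3% (11.8 to 15.1), against 11.4% (10.3 to 12.6) of regions without a p42 peak, 11.7% (10.4 to 13.1) of those without an EV peak, 24.5% of those in all 6 lists and 15.6% of all regions. By protein-coding genes, 814 members (49.6%) were intergenic, 707 (43.1%) intronic and 121 (7.37%) touched an exon. The median distance to a start site was 11254 bp. The median width of 162 bp was that of short regions, against 361 bp in all 6 lists and 147 bp over all regions.

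Mean GC content was 46.7% ± 9.67 (SD over 1642 members), against 44.6% without a p42 peak, 46.0% without an EV peak and 50.4% in all 6 lists. A share of 8.95% (7.67 to 10.4) of members had over 60% GC. This was more than the 3.97% (3.32 to 4.76) of regions without a p42 peak and the 6.30% (5.37 to 7.39) without an EV peak, but no more than the 10.5% (10.4 to 10.6) of all regions, and below the 19.1% in all 6 lists. Of these 147 members, 81 were within 1000 bp of a start site and 66 were not. They held SP/KLF in 40, CEBP in 3 and AP-1 in 4, and had a median of 12 tags in p42 DMSO and 9 in EV DMSO. The SP/KLF letters are all G and C, and the same shares in other regions with over 60% GC were not computed. These counts are therefore not read as a trait of the members.

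A p30 peak was often near. The median distance from a member to the nearest p30 peak was 3151 bp, 287 members (17.5%) had one within 500 bp, and 300 (18.3%) had none within 10000 bp. The regions without an EV peak had nearly the same distance to their nearest EV peak, 3153 bp, and those without a p42 peak lay closer to a p42 peak, at 2087 bp.

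The members were scattered over the genome. The share of the regions in the 4 lists that lacked both p30 peaks ran from 0.731% (0.521 to 1.02) on chromosome 17, 33 of 4515 regions, to 2.11% (1.76 to 2.52) on chromosome 13, 115 of 5461. Chromosome 18 followed at 1.88%. On chromosome 13 the share was also the highest of all chromosomes for the regions without a p42 peak, 2.80%, and without an EV peak, 2.56%, and 19.6% of its regions were below percentile 20 in some holding list, the largest such share of all chromosomes. Chromosome 17 had 13.5% such regions. Among these weak regions alone, the share that lacked both p30 peaks was also highest on chromosome 13, 8.96%, followed by 8.69% on chromosome 18, and the lowest was 4.36% on chromosome 20. In 571 bins of 5000000 bp with at least 50 regions, the median share was 1.28%, 51 bins had no member and no bin had more than 12. The highest share was 5.71%, 6 of 105 regions in a bin of chromosome 10. Neighbouring members were a median of 1.12 Mb apart, and 6 pairs lay within 10000 bp. Local clustering of members was not tested.

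**Figure D2:**
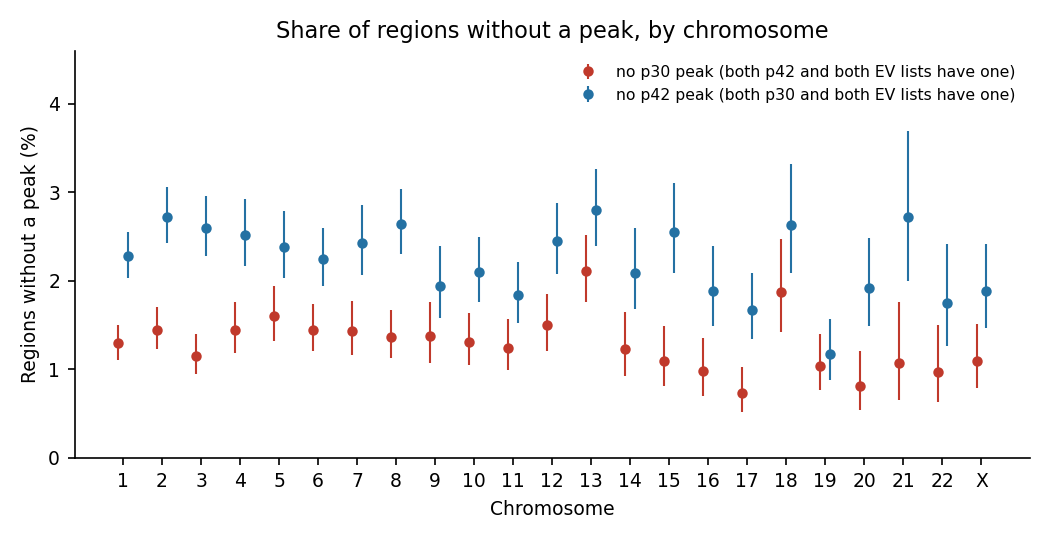
Share of regions without a peak in either list of one line (percent, y axis) for each chromosome (x axis), for the regions without a p30 peak and those without a p42 peak. Points are shares and bars 95% Wilson intervals; chromosome 13 is highest in both, at 2.11% and 2.80%, and the regions without a p30 peak have the lower share on each chromosome shown.

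The 20 strongest members were ranked by their weakest list. This ranking favours regions of even height, so closeness among the 4 lists is not a result. The strongest lay on chromosome 20, 312572 bp from the start site of PREX1, an exchange factor for Rac in neutrophils, and had 16 tags in p42 DMSO, 12 in p42 Tm, 10 in EV DMSO and 14 in EV Tm. It was at percentile 57.1 in its weakest list, and its lowest ratio to the nominal p30 limit was the highest of all members, 3.63. The region at chr4:118596012-118596182, 89210 bp from the start site of METTL14, a subunit of the RNA adenosine methyltransferase, had 17, 15, 13 and 13 tags in that order and lay 100 bp from the start site of another transcript. In the intron of USP24, a deubiquitinase, all 4 lists had 12 tags. None of these 3 regions held a match in capitals.

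The region nearest to CDH12, a cadherin, was the most uneven of the 20 between lines, with 21 tags in p42 DMSO, 14 in p42 Tm, 10 in EV DMSO and 9 in EV Tm. The region 87823 bp from BMP5, a ligand of the TGF-beta superfamily, had 12, 9, 10 and 9 tags. The member 125040 bp from IRF8, the transcription factor of monocyte and dendritic cell fate, had 9, 8, 10 and 9 tags and an SP/KLF and an NF-kB match. The member in an intron of MYBL2, a MYB family gene of dividing cells, had 8, 8, 8 and 10 tags, and that in an intron of PAWR, which promotes apoptosis, 8, 11, 8 and 12. The other 12 were nearest to CLXN, TPST1, DCDC1, CEP170, CNTNAP5, STC1, MXI1, PPIAL4E, LMX1A, KIF14, TMEM131 and IL36A, with 8 to 12 tags in each list. Members tied at percentile 42.4 filled the last places in genome order. Of the 20, 7 were in introns and 13 intergenic, 2 held AP-1 and 2 held CEBP.

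**Figure D3:**
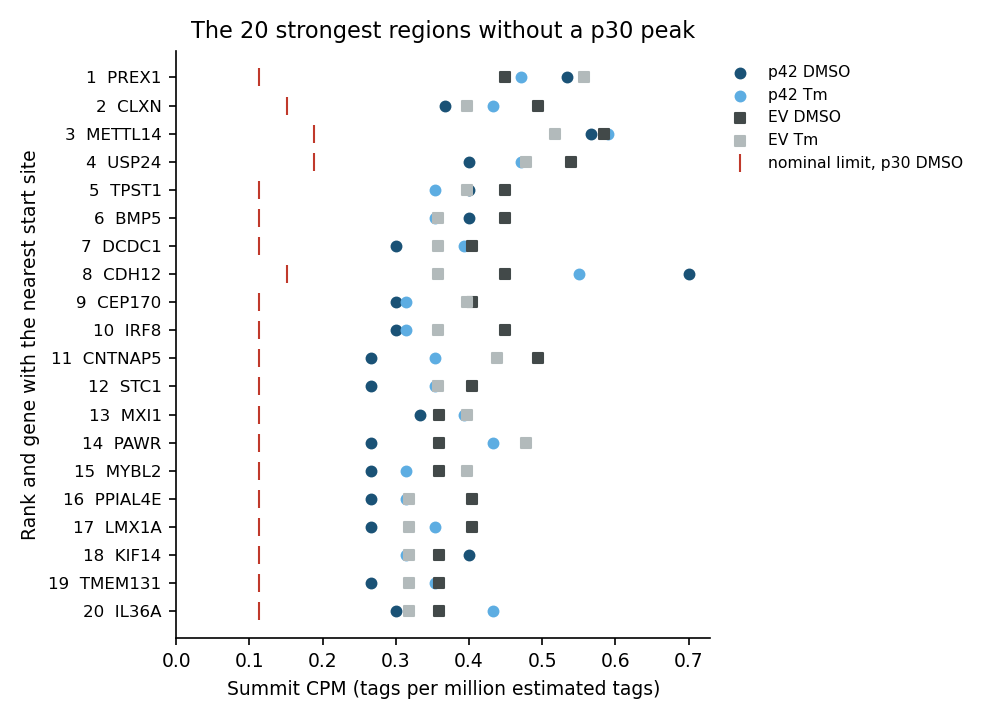
Summit CPM, the tags scaled to 1000000 estimated tags (x axis), of the 20 strongest regions without a p30 peak (y axis, by rank and the gene with the nearest start site) in p42 DMSO, p42 Tm, EV DMSO and EV Tm, with the nominal p30 DMSO limit as a red tick. All points of the 20 regions lie to the right of the tick, which the rule nearly fixes, and the CDH12 region has the widest spread, from 9 tags in EV Tm to 21 in p42 DMSO.

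Promoters of 168 of 19962 protein-coding genes (0.842%) had a member within 1000 bp of a start site. The strongest, named after their values were seen, included a region in an exon of STX5, a syntaxin of the Golgi, 538 bp from the start site of NXF1, the mRNA export receptor, with 27 tags in p42 DMSO, 18 in p42 Tm, 14 in EV DMSO and 17 in EV Tm and nominal p30 limits of 8 and 8 tags. This STX5 region held AP-1 and NFY matches. The start site of RMDN3, a mitochondrial outer membrane protein, had 21, 16, 12 and 16 tags and a CEBP match. The start site of CKLF, a chemokine-like factor, had 8, 10, 9 and 12 tags, and that of PACS1, a sorting protein, 12, 8, 8 and 8 at a distance of 247 bp. The nearest p30 peak lay 452 bp from the STX5 region and 211 bp from the RMDN3 region. It lay 1554 bp from the CKLF region and 1061 bp from the PACS1 region.

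Of the gene lists, 2110 of 19962 protein-coding genes (10.6%) had a member within 50000 bp, and the lists are read against that. The AP-1 genes had 1 of 14, BATF, whose member lay in FLVCR2 with 5, 8, 6 and 6 tags. The C/EBP and PAR bZIP genes had 0 of 9 and the monocyte surface genes 0 of 10. The inflammatory mediators had 2 of 20: an IL12B intron, in the gene of the shared subunit of IL-12 and IL-23, with 7, 7, 6 and 10 tags and RUNX and GATA matches, and a region downstream of TNFAIP3, the NF-kB inhibitor A20, with 8, 8, 9 and 11 tags. The nearest p30 peak lay 2384 bp from the IL12B region and 135 bp from the TNFAIP3 region. Myeloid transcription factors had 1 of 11, with a region downstream of RUNX3 at 12, 12, 15 and 16 tags, where the nominal p30 limits were 10 tags in DMSO and 9 in Tm and a p30 peak lay 73 bp away. These shares, up to 10.0%, rest on 0 to 2 genes per list and are not read as different from the background of 10.6%.

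The interferon-stimulated genes had 6 of 12, a higher share, but these rested on 3 regions, since neighbouring genes shared them. An intron of IFIT3 that also lies in LIPA, with 10, 6, 10 and 9 tags, counted for IFIT1, IFIT2 and IFIT3, which encode RNA-binding antiviral proteins. An intron of OAS3, with 13, 8, 10 and 7 tags, counted for OAS1, OAS2 and OAS3, the oligoadenylate synthetases, and a region in DTX1 with 8, 6, 8 and 8 tags counted again for OAS2. The nearest p30 peak lay 603 bp from the IFIT3 region, 172 bp from the OAS3 region and 1904 bp from the DTX1 region. Neither the OAS3 nor the IFIT3 region held an ISRE match, the element of interferon factors, and none was within 1000 bp of a start site of a listed gene.

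Granule genes had 2 of 11 (18.2%). An intron of MPO, the myeloperoxidase of primary granules, had 18, 15, 13 and 13 tags and a RUNX match, with nominal p30 limits of 11 and 10 tags and a lowest ratio to them of 1.19. An intron of LTF, the lactoferrin of secondary granules, had 11, 8, 5 and 5. The stem cell and leukaemia genes had 2 of 14 (14.3%). An intron of ERG had 19, 13, 11 and 15 tags with RUNX and GATA matches and nominal p30 limits of 9 and 8 tags. An exon of MECOM, the EVI1 locus, had 9, 7, 8 and 6. The MECOM region, at chr3:169133284-169133411 and 559 bp from a start site, was the only member within 1000 bp of a start site of any gene on the lists. The list for the unfolded protein response and the integrated stress response had 2 of 19 (10.5%). A region in MARS1 near DDIT3, the CHOP gene, had 8, 6, 5 and 6 tags with PU.1 and OCT matches. The other lay 67150 bp from the start site of SESN2, a stress-induced sestrin, and only 2091 bp from that of MED18, its nearest protein-coding gene. It had 21, 18, 15 and 16 tags, nominal p30 limits of 8 and 8 tags and a CEBP match. Its lowest percentile of 40.7 was the highest of the members near listed genes.

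The most members over a gene body were 3, in each of 6 genes: APLF, DLGAP2, FKBP5, KAZN, LRMDA and PRKCE. FKBP5, a co-chaperone of the glucocorticoid receptor, had 3 members among its 15 regions in the 4 lists. Its members had 6, 6, 7 and 6 tags, with CEBP and GATA matches, then 12, 7, 7 and 9 with a PU.1 match, and 12, 6, 6 and 4 with neither. Their nearest p30 peaks lay 16261, 4208 and 322 bp away in that order. APLF, a DNA end-joining factor, had 3 of 14, with 5 to 9 tags in each list. PRKCE, a protein kinase C, had 3 of 29, of which 2 held AP-1. The others are long genes, KAZN with 33 regions, DLGAP2 with 44 and LRMDA with 47. All 6 genes were picked for having the most members, so a share above the 1.33% of all regions in the 4 lists is not a result.

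As a check of the cells, all 7 promoters of the myeloid blast markers CD33, CD34, CSF3R, KIT, LYZ, MPO and SPI1 had a peak in all 6 lists. The erythroid markers HBB and KLF1 had none in any list. Promoters of 3 of 4 T cell, 3 of 4 B cell, 3 of 3 fibroblast and 2 of 3 epithelial markers also had a peak in all 6 lists, so a promoter peak alone does not tell these cell types apart here.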

How the data were processed

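ATAC-seq libraries of KO-52 cells were trimmed with Trim Galore 0.6.6, aligned to hg38 with Bowtie2 2.4.4, cleared of duplicates with Picard and scored with MACS2, per the study's methods and processing notes. A shift of reads for the Tn5 cut is not given in the sources used here. A shift moves a summit by a few bp within a window of 100 bp on each side. The 12 libraries of 6 conditions were given as 6 peak lists of pooled replicates.

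The deposited fold enrichment of a peak is a ratio of the summit pileup to the local background of its own list. Its −log10 p was deposited on the same background, its −log10 q was deposited as a score of the same kind after adjustment, and the summit was deposited as an offset in bp. The authors scaled none of these between lists.

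The pileup k and background were solved from fold = (k + 1) / (background + 1) and the Poisson p-value. They gave a whole k for 100% of peaks within 0.0001 of −log10 p. Depth was estimated as the lowest background times 2700000000 bp over the shortest peak. Depth per replicate is unknown.

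Peaks were merged at 1 bp of overlap. Annotation was GENCODE release 44, and sequence came from hg38, in which no peak passed a chromosome end. Motifs were exact matches. The bands by EV DMSO tags were used beside those by p42 DMSO tags, because the regions without a p42 peak have no p42 height. Genes named were those of the 20 strongest members, listed genes with a member in the promoter, and the genes with the most members (6 tied for the 5 places). Other genes were named after their values were seen. The members and lists were chosen with earlier results of these data known. No test was run, since 1 list stands for a condition. The scripts (Python 3.11.15, numpy 2.4.6, scipy 1.17.1, pandas 2.3.3, pysam 0.24.0) were tested on simulated peaks and planted motifs.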

Additional observations from a re-analysis of the deposited data

How the results depend on the processing

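The member count of 1642 stayed within 1.5 times, from 1139 to 1654, when lists were cut to the same number of peaks, tags were scaled to the shallowest list with 1 common threshold, a peak had to cover 50% of the region, peaks closer than 100 bp were merged, p30 peaks within 500 bp were barred, or chromosome X was left out. It fell to 46 when each of the 4 holding lists had to reach a −log10 q of 5, and to 0 at 10, where shares have no value. It was 13115 with the DMSO lists alone and 16241 with the tunicamycin lists alone, since fewer lists must then agree. The regions without a p42 peak then numbered 12505 and 15372, fewer than the members, whereas under the full rule they were more, 2844 against 1642.

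The promoter share of 13.3% was 15.2% at a −log10 q of 5, 16.0% with 50% coverage, 10.2% with no p30 peak within 500 bp, and 8.53% and 19.2% for promoter widths of 500 and 2000 bp. The AP-1 share of 13.0% was 10.9% at a −log10 q of 5, and 8.16% and 19.4% with windows of 50 and 200 bp. The CEBP share of 14.6% was 17.4% with equal list sizes, and 7.19% and 24.8% with those windows. The ratio of the members' share to that of regions without a p42 peak, an alternative chosen after seeing the data, stayed under 1 for AP-1 (0.269 to 0.629) and above 1 for CEBP (1.55 to 2.84) in all 11 settings with a value.

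No paired analysis was possible because the replicates are pooled in the deposited lists. For the same reason no replicate was left out. With a median of 7 to 9 tags at the summit and a median nominal limit of 3, a change of a few tags can move a region in or out. The part of depth in this was not tested.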
